A study of Rattus norvegicus with 16 samples.

Results

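The genes examined here are 10 that are known as disallowed in β cells: Slc16a1, Ldha, Acot7, Oat, Mgst1, Arap2, Zfp36l1, Maf, Lmo4 and Cat. They were taken by gene symbol from a list drawn up for this purpose, with no threshold on a measured value but with earlier results of these data known. All 10 had a transcript cluster on the array, 1 cluster each, among 15037 gene symbols and 23188 clusters. The cells were 832/13 INS1 β cells, a clonal rat insulinoma line, transduced with a lentiviral vector for Pax5 (8 arrays) or for GFP (8 arrays). Both groups therefore carried a vector, and cells without one were not analysed here. Vectors were applied at an MOI (viral units per cell) of 1.25 for 24 h, the medium was renewed for another 48 h at 11.1 mM glucose, and RNA was collected at 72 h. The sample labels number 8 experiments with 1 Pax5 and 1 GFP array each, and do not state whether these were separate passages, so each p refers only to the variation among these 8 experiments.

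Most tissues use the disallowed genes freely, whereas mouse and rat islets keep them unusually low. The best known are Slc16a1, which encodes the monocarboxylate transporter MCT1, and Ldha, a lactate dehydrogenase subunit. With little of either protein, a β cell takes up little pyruvate or lactate from the blood and sends glucose carbon into mitochondria rather than to lactate, so that insulin release follows glucose. The other genes on such lists serve fatty acyl-CoA breakdown, amino acid use, peroxide removal, small GTPase signalling, RNA decay and transcription.

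The promoter sequences of the 3 genes that changed at least 2-fold, Cat, Lmo4 and Slc16a1, are shown together with that of Ldha, the metabolic partner of Slc16a1, whose difference did not pass the test. Each line gives the 250 bases before 1 annotated transcript start, read 5′ to 3′ on the strand of the gene, from RefSeq on rat build GRCr8. The annotated genes Slc16a1 and Lmo4 reach further upstream than these windows, so they have other starts, which were not searched. The windows are chr3:110329527-110329776 on the minus strand for Cat, chr2:235941276-235941525 on the minus strand for Lmo4, chr2:194812410-194812659 on the plus strand for Slc16a1 and chr1:106507842-106508091 on the plus strand for Ldha. Capitals mark ACGTG on either strand, the core of the hypoxia response element, and the palindrome CACGTG, the E-box bound by Myc, Max and the Usf factors, which contains ACGTG on both strands.
Cat: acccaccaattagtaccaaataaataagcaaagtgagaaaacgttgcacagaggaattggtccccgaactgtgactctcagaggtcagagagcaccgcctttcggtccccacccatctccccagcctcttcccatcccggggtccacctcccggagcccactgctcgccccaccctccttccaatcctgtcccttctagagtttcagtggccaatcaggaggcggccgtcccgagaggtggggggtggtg
Lmo4: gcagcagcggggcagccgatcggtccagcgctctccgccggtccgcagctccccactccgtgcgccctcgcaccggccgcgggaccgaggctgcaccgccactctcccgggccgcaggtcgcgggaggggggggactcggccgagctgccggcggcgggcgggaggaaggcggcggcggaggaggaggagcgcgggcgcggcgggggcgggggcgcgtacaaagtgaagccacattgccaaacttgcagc
Slc16a1: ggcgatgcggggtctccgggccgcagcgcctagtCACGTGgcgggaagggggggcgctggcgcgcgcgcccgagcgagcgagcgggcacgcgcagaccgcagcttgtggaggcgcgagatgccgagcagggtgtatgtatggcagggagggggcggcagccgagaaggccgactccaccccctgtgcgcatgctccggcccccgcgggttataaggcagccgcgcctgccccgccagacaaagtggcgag
Ldha: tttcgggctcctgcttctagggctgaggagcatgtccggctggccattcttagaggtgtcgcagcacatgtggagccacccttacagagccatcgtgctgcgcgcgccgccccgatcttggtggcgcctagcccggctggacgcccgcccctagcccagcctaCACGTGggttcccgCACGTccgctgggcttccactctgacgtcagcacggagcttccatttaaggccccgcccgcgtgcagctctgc

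In the window of 300 bases used for the search (250 before and 50 after the start), CACGTG occurred in 6.42% of 33469 rat promoters on either strand, and among the 10 genes in Slc16a1, 216 bases before the start, and Ldha, 87 bases before it. ACGTG occurred in 19.3% of the promoters and in 3 of the 10 genes. Beyond the palindromes it lay in Ldha 73 bases before the start, in Oat 20 bases before it and in Slc16a1 6 bases after it. The core GCGTGAC of the Pax5 paired-domain motif was present in 2% of the promoters and in no window of the 10 genes. A match in letters is not a site of binding, and a missing match says only that these letters are not in this window. All 10 genes matched a promoter by symbol, and Acot7 alone had several windows. The 4 printed stretches had GC contents of 58.8% (Cat), 77.6% (Lmo4), 74.0% (Slc16a1) and 66.4% (Ldha).

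Levels are RMA values, log2 signals of a transcript cluster after background correction and normalization between arrays, and a difference of 1 is a doubling of signal. Differences between Pax5 and GFP cells were fitted in limma within experiments (experiment as a block), with p adjusted over 23188 clusters after Benjamini and Hochberg, and an adjusted p under 0.05 was taken as a change. Array medians lay between 6.98 and 7.01, and precision is limited by the count of arrays. The transgene served as a check of the labels, as Pax5 itself had a mean log2 signal of 17.26 ± 0.191 in Pax5 cells and 7.93 ± 0.409 in GFP cells (SD, n = 8 each). Of the β cell markers, Ins1 averaged 18.23 ± 0.0454 in Pax5 cells and 18.30 ± 0.0344 in GFP cells (SD, n = 8 each), and neither it nor Ins2, Pdx1 or Nkx6-1 passed the test. Slc2a2, the glucose transporter of β cells, fell (log2 fold change -0.95), as did the zinc transporter Slc30a8 (-0.40), while Iapp (0.46) and Neurod1 (0.29) rose. Gcg, the glucagon gene of α cells, was also bright, at 18.09 in Pax5 cells and 17.35 in GFP cells, and rose by 0.74, while Sst (0.01), Hhex (-0.12) and Ppy (0.22) did not pass. Of 5 acinar and ductal markers, the keratin Krt7 rose by 0.35 and the other 4 did not pass, with differences between -0.09 and 0.04. The 10 fibroblast, endothelial and leukocyte markers had means between 4.08 and 6.23 in Pax5 cells and between 4.08 and 6.24 in GFP cells, with 0 past the threshold in limma and 2 at an unadjusted p under 0.05. In cultures measured in bulk, less RNA per cell and fewer cells with that RNA cannot be told apart, and whether the markers' shifts bear on the values of the disallowed genes was not tested.

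By mean signal over all 16 arrays, the 10 disallowed genes were not uniformly dim. Mgst1 was brighter than 91.4% of clusters, Cat than 85.7%, Oat than 72.9%, Slc16a1 than 67.1% and Arap2 than 64.3%. Lower shares held for Lmo4 (59.0%), Acot7 (55.5%), Maf (42.8%), Ldha (37.3%) and Zfp36l1 (34.6%). In GFP cells Zfp36l1 averaged 5.38, just above 5.33, the cutoff of an alternative that left out the dimmest clusters. Of the 10 disallowed genes, 3 rose in Pax5 cells (Cat, Zfp36l1 and Maf), 2 fell (Lmo4 and Slc16a1) and 5 did not pass the test (Ldha, Acot7, Oat, Mgst1 and Arap2). That is 50% called, where 30.7% of all clusters were called, 14.6% as higher and 16.1% as lower. Counts given below for other lists are to be read beside the same shares. At least 2-fold changes were found for 3 of the 10 genes (Cat, Lmo4 and Slc16a1), against 2.15% of all clusters. Values of the Pax5 and GFP arrays did not overlap for 4 of the 10 genes (Cat, Lmo4, Slc16a1 and Zfp36l1), against 16.7% of all clusters. As the 10 genes were chosen with earlier results of these data known, these shares are a description and not a test. The median log2 fold change of the 10 genes was 0.07 and the median of its size was 0.23, beside 0.00 and 0.13 over all clusters. The genes thus did not move one way as a group, and a few large differences stood beside several small ones.

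**Figure D1:**
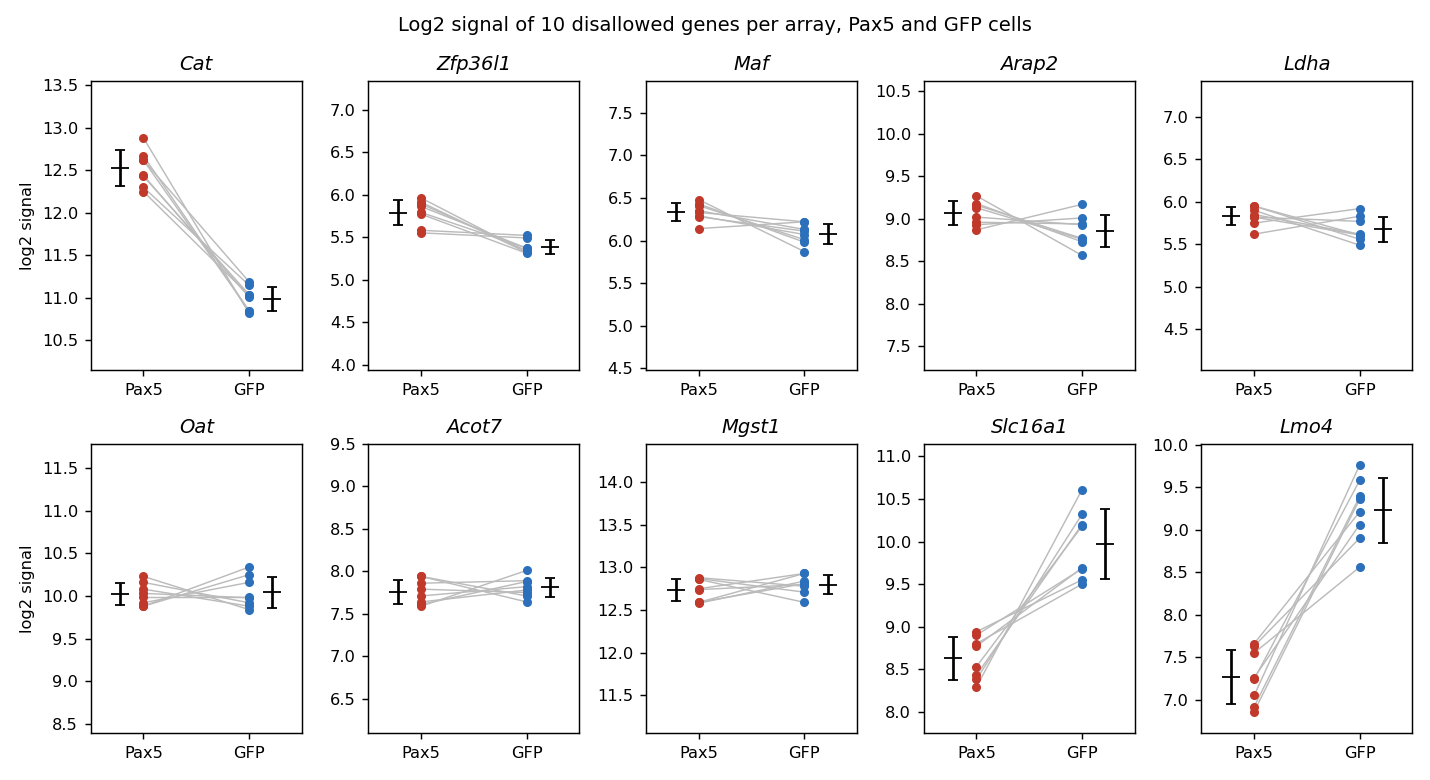
Log2 signal (vertical axes, each spanning the same number of log2 units) of the 10 disallowed genes in each Pax5 array (left, red) and GFP array (right, blue), with lines joining the arrays of 1 experiment and black bars for the mean ± SD of 8 arrays. The Pax5 arrays lie wholly above the GFP arrays for Cat and Zfp36l1 and wholly below them for Slc16a1 and Lmo4, and the groups overlap for the other 6 genes.

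Slc16a1 fell in Pax5 cells. Its log2 signal lay between 8.29 and 8.94 in Pax5 arrays, with a median of 8.65, and between 9.50 and 10.61 in GFP arrays, with a median of 9.94. Every Pax5 array was below every GFP array. The log2 fold change was -1.34 (SE 0.168, 95% interval -1.69 to -0.98, limma adjusted p = 1.65e-05), so that the signal in Pax5 cells was 0.396 times that in GFP cells. The size varied widely between experiments, from a difference of -0.61 in experiment 5 to -2.32 in experiment 4, which had both the brightest GFP array and the dimmest Pax5 array.

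Ldha makes lactate from pyruvate and regenerates NAD+, and with MCT1 it forms the textbook pair of disallowed genes. Its log2 signal lay between 5.62 and 5.95 in Pax5 arrays (median 5.84) and between 5.49 and 5.92 in GFP arrays (median 5.62). The groups overlapped over most of their range. Ldha had a log2 fold change of 0.16 (SE 0.0827, 95% interval -0.02 to 0.33, limma adjusted p = 0.174), with a higher value in 6 of 8 experiments, so a rise of up to 0.33 is within the interval and a fall as large as that of Slc16a1 is not. Ldha averaged only 5.68 in GFP cells, not far above 5.33, the cutoff for the dimmest clusters. Its signal over background was not examined, and whether a fall of that size could show at this level was not tested. The change of Slc16a1 minus that of Ldha was -1.49 (SD 0.604, n = 8), with Slc16a1 below Ldha in 8 of 8 experiments. Exact sign flips of such differences between a disallowed gene and its relatives, 2-sided and adjusted over 53 pairs, gave p = 0.0153 for this pair, with 0.00781 before adjustment, the smallest p that 8 experiments allow. These pairs were drawn up with the values of the genes known.

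The other lactate and pyruvate carriers on the array set the fall of Slc16a1 in its family. Slc16a7, which encodes MCT2, also fell, with mean log2 signals of 9.07 ± 0.111 in Pax5 cells and 10.21 ± 0.163 in GFP cells (SD, n = 8 each), a log2 fold change of -1.15 and a limma adjusted p of 6.41e-08. The change of Slc16a1 minus that of Slc16a7 was -0.19 (SD 0.719, n = 8), with 4 experiments on each side and an exact sign-flip adjusted p of 0.603. Slc16a3, which encodes the lactate exporter MCT4, had a log2 fold change of 0.22 that did not pass (limma adjusted p = 0.0558). It did pass in 4 of 14 alternative fits, among them those without experiment 1 or 8. Slc16a8 (MCT3) had a log2 fold change of 0.05. The changes of Slc16a1 lay below those of Slc16a3 and Slc16a8 in 8 of 8 experiments (exact sign flips, adjusted p = 0.0153 for each). Both of these relatives were dim. Mean log2 signals in Pax5 and GFP cells were 5.30 and 5.08 for Slc16a3 and 4.10 and 4.06 for Slc16a8. The filter on the dimmest clusters (mean under 5.33) removed both, and their signal over background was not examined.

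Embigin (Emb) and basigin (Bsg) are chaperones that carry monocarboxylate transporters to the cell surface. Emb rose (log2 fold change 0.35, limma adjusted p = 0.000913), while Bsg differed by -0.08 and did not pass. Ldhb, the heart-type subunit that favours pyruvate formation, fell slightly, with a log2 fold change of -0.23 and a limma adjusted p of 0.0439, and lost that call in 7 of 15 alternative fits, where adjusted p reached 0.133. The change of Ldha lay above that of Ldhb by 0.39 (SD 0.288, n = 8) in 8 of 8 experiments (exact sign flips, adjusted p = 0.0153). Ldha alone did not pass, and its signal was not far above the cutoff for the dimmest clusters. The mitochondrial pyruvate carrier subunits Mpc1 (0.08) and Mpc2 (0.12) did not pass. In all, 1 of the 9 measured genes of lactate and pyruvate handling rose, 2 fell and 6 did not pass.

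Pyruvate that is not reduced to lactate enters the citric acid cycle through pyruvate dehydrogenase or pyruvate carboxylase. Of 11 measured genes of these steps 4 rose, 3 fell and 4 did not pass, with a median log2 fold change of 0.01. The kinases that switch pyruvate dehydrogenase off moved in opposite directions. Pdk2 rose by 1.40 (limma adjusted p = 3.73e-08), with means of 10.06 ± 0.190 in Pax5 cells and 8.66 ± 0.170 in GFP cells (SD, n = 8 each), and Pdk3 rose by 0.47. Pdk1 had a log2 fold change of -0.91 (limma adjusted p = 1.85e-07), with means of 10.84 ± 0.119 in Pax5 cells and 11.75 ± 0.118 in GFP cells (SD, n = 8 each). Of the complex itself, the E1 subunit Pdhb rose by 0.30 and its partner Pdha1 had a log2 fold change of -0.24. The phosphatases that switch it on again differed too, with Pdp2 at 0.21 and Pdp1 at -0.22, but Pdp2 did not pass without experiment 4, 5, 6 or 7 (limma adjusted p up to 0.0777) and Pdp1 not in 8 of 15 alternative fits, among them those without experiment 3, 4, 5, 6 or 7 (adjusted p up to 0.139 over all 15). Pc, the pyruvate carboxylase through which β cells refill the cycle, differed by -0.07 and did not pass. The NADH shuttles, which pass electrons of glycolysis to mitochondria in cells short of lactate dehydrogenase, had 2 of 7 genes lower, Got1 (-0.34) and Mdh2 (-0.23), and 5 that did not pass. Mdh2 lost its call in 3 of 15 alternative fits, among them those without experiment 4 or 7 (adjusted p up to 0.0874 over all 15). Got1 lost its call in the paired test that a legend of the study names, with p adjusted here over all clusters.

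**Figure D2:**
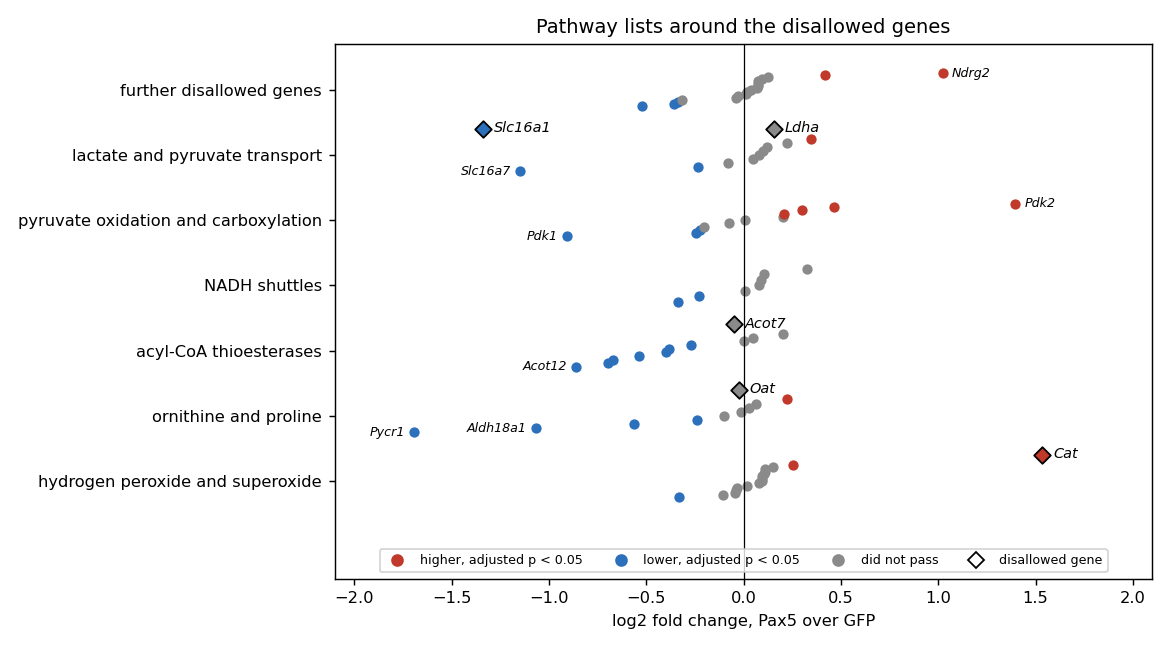
Log2 fold change of Pax5 over GFP (horizontal axis) for the measured genes of 7 lists (rows), with circles for list genes, diamonds for disallowed genes and colours for the limma call. Slc16a1 and Slc16a7 stand apart on the left of their row, Cat lies at 1.53 to the right of all 15 genes of peroxide and superoxide removal, and 7 of 10 acyl-CoA thioesterases but not Acot7 were lower.

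Cat encodes catalase, which splits hydrogen peroxide in peroxisomes and is scarce in islets of rodents. It rose in Pax5 cells, with a log2 signal between 12.25 and 12.88 in Pax5 arrays (median 12.53) and between 10.82 and 11.19 in GFP arrays (median 11.02). The gap between the dimmest Pax5 array and the brightest GFP array was wider than the spread within either group. Cat changed by 1.53 (SE 0.0959, 95% interval 1.33 to 1.74, limma adjusted p = 9.23e-09), a 2.90-fold higher signal, and was higher in 8 of 8 experiments. Differences ran from 1.15 in experiment 6 to 2.06 in experiment 1.

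The other enzymes that remove peroxide or superoxide moved little. Of 15 measured superoxide dismutases, glutathione peroxidases and peroxiredoxins, 1 rose, 1 fell and 13 did not pass, with a median log2 fold change of 0.09. The filter on the dimmest clusters (mean under 5.33) kept 11 of the 15 genes. Sod3, Gpx1, Gpx2 and Gpx8 were dimmer and did not pass, and their signal over background was not examined. Gpx3, the secreted glutathione peroxidase, rose by 0.25 (limma adjusted p = 0.0192) and did not pass without experiment 1 or without experiment 8, where adjusted p reached 0.0539. Prdx4, the peroxiredoxin of the endoplasmic reticulum, had a log2 fold change of -0.33 (limma adjusted p = 0.00826). The change of Cat was above that of each of the 15 genes in 8 of 8 experiments (exact sign flips, adjusted p = 0.0153 for each), by 1.28 for Gpx3 to 1.87 for Prdx4.

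Mgst1, a membrane-bound glutathione transferase that also reduces lipid peroxides, did not pass the test. It lay between 12.58 and 12.88 in Pax5 arrays (median 12.75) and between 12.59 and 12.93 in GFP arrays (median 12.81), and the groups overlapped almost fully. The log2 fold change was -0.07 (SE 0.0791, 95% interval -0.23 to 0.10, limma adjusted p = 0.580). Its relatives of the MAPEG family of membrane proteins did otherwise, since 4 of 5 rose and Alox5ap (0.07) did not pass. Mgst2 rose by 0.53 (limma adjusted p = 0.000301) and Mgst3 by 0.47 (limma adjusted p = 0.000241), beside Ltc4s, which makes leukotriene C4 (0.22), and Ptges, which makes prostaglandin E2 (0.22) and was at a limma adjusted p of 0.0501 without experiment 6. The change of Mgst1 lay below that of Mgst2 by 0.59 and of Mgst3 by 0.54, in 8 of 8 experiments each (differences of -0.59 and -0.54, exact sign flips, adjusted p = 0.0153), and also below Ptges (exact, adjusted p = 0.0286) and Ltc4s (exact, 0.0376) in 7 of 8 experiments.

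Acot7 releases fatty acids from long-chain acyl-CoA in the cytosol and is abundant in neurons. Its values lay between 7.59 and 7.94 in Pax5 arrays (median 7.75) and between 7.64 and 8.01 in GFP arrays (median 7.80). The groups overlapped, and the log2 fold change of -0.05 (95% interval -0.23 to 0.13) did not pass (limma adjusted p = 0.700). Of the 10 other measured acyl-CoA thioesterases, 7 fell and 3 did not pass, with a median of -0.39, where 16.1% of all clusters were called lower. Acot5 and Acot11 were under the cutoff for the dimmest clusters (mean under 5.33), and with that filter 6 of 8 fell. In the paired test that a legend of the study names, with p adjusted here over all clusters, 5 of the 10 fell. Acot2 and Acot13 lost their calls there. The lowest log2 fold changes were those of Acot12 (-0.86), a cytosolic acetyl-CoA hydrolase, Acot1 (-0.70) and the mitochondrial Acot2 (-0.67). Acot1, Acot2, Acot3 and Acot5 are close copies, so probes may be shared between them and their separate values are uncertain. The change of Acot7 was above that of Acot1 (exact sign flips, adjusted p = 0.0153), Acot12 (exact, 0.0286) and Acot2 (exact, 0.0487), and for the other 7 thioesterases the difference did not pass.

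Oat is the mitochondrial ornithine aminotransferase that links ornithine with glutamate and proline. Its log2 signal lay between 9.88 and 10.23 in Pax5 arrays (median 10.01) and between 9.84 and 10.34 in GFP arrays (median 9.98). Experiments disagreed in sign, with 4 higher, 3 lower and 1 equal. The log2 fold change of Oat was -0.02 (SE 0.0938, 95% interval -0.22 to 0.18, limma adjusted p = 0.881), and its sign turned when experiment 1, 2 or 4 was left out.

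Some neighbours of Oat in ornithine and proline metabolism changed more and others did not pass. Pycr1, which completes proline synthesis in mitochondria, had means of 6.33 ± 0.339 in Pax5 cells and 8.03 ± 0.451 in GFP cells (SD, n = 8 each), a log2 fold change of -1.69 and a limma adjusted p of 2.53e-06. Aldh18a1, which makes the shared precursor of proline and ornithine from glutamate, changed by -1.07 (limma adjusted p = 0.000150), and Odc1, the first enzyme of polyamine synthesis, by -0.56 (limma adjusted p = 6.24e-05). Azin1, an activator of Odc1, had a log2 fold change of -0.24 that did not pass in 5 of 15 alternative fits (limma adjusted p = 0.0221 here and up to 0.0614 there), and Otc rose by 0.23 (limma adjusted p = 0.0194). Of the 9 measured genes, 1 rose, 4 fell and 4 did not pass, namely Arg1 (0.03), Arg2 (-0.01), Pycr3 (0.06) and Prodh (-0.10). Oat's change was above that of Pycr1 in 8 of 8 experiments (exact sign flips, adjusted p = 0.0153) and above those of Aldh18a1 and Odc1 in 7 of 8 (exact sign flips, adjusted p = 0.0376 each). It was below that of Otc in 7 of 8 (a difference of -0.25, exact sign flips, adjusted p = 0.0376). Otc, the only gene of this list that rose, was dim, with means of 5.41 in Pax5 cells and 5.18 in GFP cells. The filter on the dimmest clusters (mean under 5.33) removed it and left 8 genes with 0 higher, and its signal over background was not examined.

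**Figure D3:**
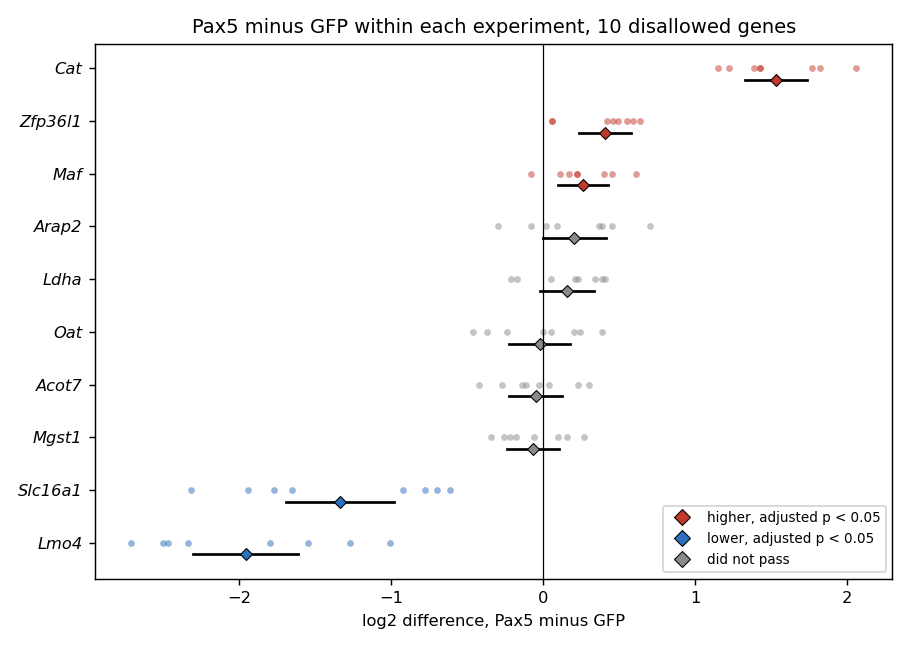
Difference in log2 signal, Pax5 minus GFP (horizontal axis), for the 10 disallowed genes (rows), with dots for the 8 experiments, diamonds for the log2 fold change and black lines for its 95% interval in limma. All 8 dots lie above 0 for Cat and Zfp36l1 and below 0 for Slc16a1 and Lmo4, and the intervals of the 5 grey genes include 0.

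Arap2, a GTPase-activating protein for Arf6 at focal adhesions, lay between 8.87 and 9.27 in Pax5 arrays (median 9.08) and between 8.57 and 9.17 in GFP arrays (median 8.85). The groups overlapped, with a higher value in 6 of 8 experiments. The log2 fold change of 0.20 (SE 0.0979, 95% interval -0.003 to 0.41, limma adjusted p = 0.130) did not pass, and without experiment 1, the experiment with the most negative difference (-0.30), it was 0.28 with a limma adjusted p of 0.0349. Arap2 also passed with all experiments kept but no block (limma adjusted p = 0.0318). Its call thus turned on the form of the fit as well as on experiment 1.

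Zfp36l1 binds AU-rich elements of mRNAs and starts their decay, and is paired in many tissues with Zfp36l2. It rose modestly but in every experiment, with values between 5.55 and 5.96 in Pax5 arrays (median 5.83) and between 5.31 and 5.52 in GFP arrays (median 5.36). The groups did not overlap, though the dimmest Pax5 array and the brightest GFP array were close. Its log2 fold change was 0.41 (SE 0.0801, 95% interval 0.24 to 0.58, limma adjusted p = 0.000978), a 1.33-fold higher signal, and differences ran from 0.06 in experiment 6 to 0.64 in experiment 5. Zfp36l2 rose by 0.41 as well (limma adjusted p = 0.000828), and the change of Zfp36l1 minus that of Zfp36l2 was 0.00 with an SD of 0.369 over 8 experiments. Zfp36, tristetraprolin, differed by 0.25 and did not pass (limma adjusted p = 0.124).

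Maf encodes c-Maf, a large Maf transcription factor that serves the glucagon gene in α cells, where β cells use Mafa. Its values lay between 6.14 and 6.48 in Pax5 arrays (median 6.34) and between 5.87 and 6.22 in GFP arrays (median 6.09). The groups overlapped at 1 Pax5 array, that of experiment 6, the single experiment with a lower value. Maf rose by 0.26 (SE 0.0784, 95% interval 0.10 to 0.43, limma adjusted p = 0.0180), and without experiment 5, where it differed most (0.61), the log2 fold change was 0.21 and did not pass (limma adjusted p = 0.0594). The small Maf proteins, which lack a transactivation domain and pair with Nrf and Bach factors, all fell. Their log2 fold changes were -0.57 for Maff, -0.51 for Mafg and -0.51 for Mafk, with limma adjusted p of 0.00292, 1.90e-05 and 0.00186 in the same order. The change of Maf was above each of these 3 in 8 of 8 experiments (exact sign flips, adjusted p = 0.0153 for each), while its difference from Nrl, a retinal large Maf, did not pass.

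Lmo4 is a LIM-only adaptor without a DNA-binding domain of its own, which binds Ldb1 and thereby competes with LIM homeodomain factors such as Isl1. It had the lowest log2 fold change of the 10 genes. The log2 signal lay between 6.86 and 7.66 in Pax5 arrays (median 7.25) and between 8.56 and 9.76 in GFP arrays (median 9.29), so that the groups were well apart. Lmo4 changed by -1.96 (SE 0.163, 95% interval -2.30 to -1.61, limma adjusted p = 2.04e-07), a signal in Pax5 cells 0.258 times that in GFP cells. The differences ran from -2.71 in experiment 4 to -1.01 in experiment 2.

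The LMO family divided in Pax5 cells. Lmo1 also fell, with means of 6.55 ± 0.339 in Pax5 cells and 8.24 ± 0.326 in GFP cells (SD, n = 8 each) and a log2 fold change of -1.70 (limma adjusted p = 8.88e-07). Lmo2, known from blood cell development, rose, with means of 7.71 ± 0.218 in Pax5 cells and 6.72 ± 0.177 in GFP cells (SD, n = 8 each) and a log2 fold change of 0.99 (limma adjusted p = 4.40e-06). The change of Lmo4 minus that of Lmo2 was -2.95 (SD 0.805, n = 8, exact sign flips, adjusted p = 0.0153), and minus that of Lmo1 it was -0.26 (SD 0.347, n = 8, exact sign flips, adjusted p = 0.142). Ldb1, the partner the LMO proteins share, rose by 0.40 (limma adjusted p = 0.00174). Isl1 rose by 0.22 (limma adjusted p = 0.0291), a call lost without experiment 1, 3, 4 or 6, where adjusted p reached 0.0913.

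**Figure D4:**
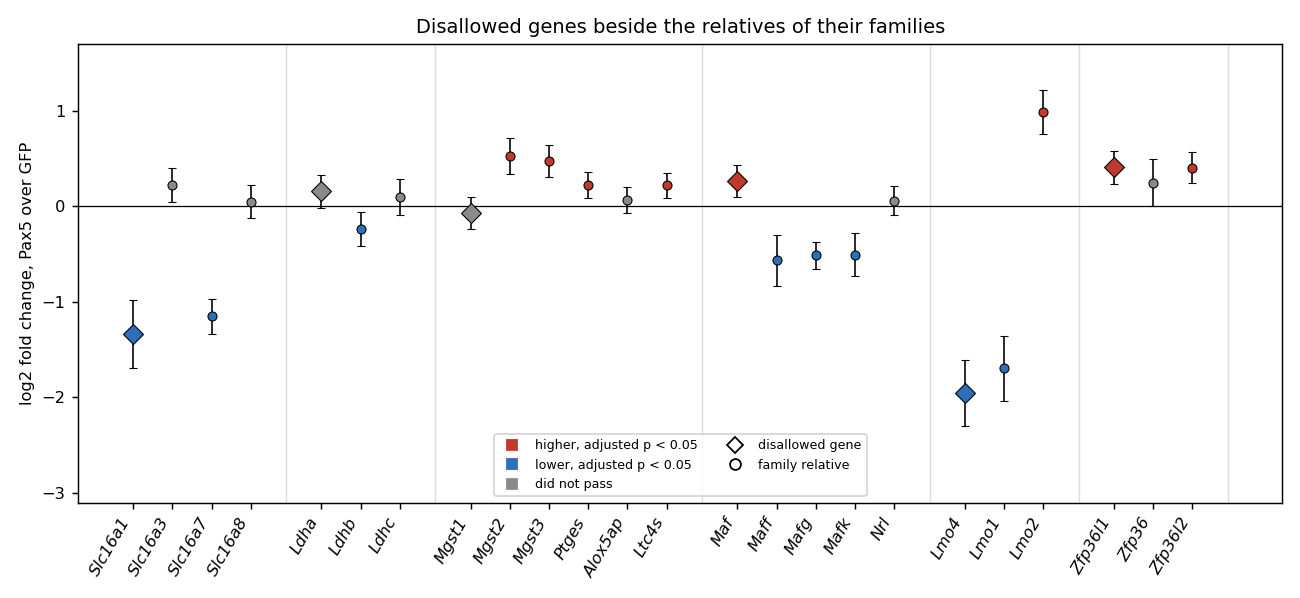
Log2 fold change of Pax5 over GFP (vertical axis) for 6 disallowed genes (diamonds) and relatives of their families (circles), with 95% intervals from limma and colours for the call. Slc16a1 and Slc16a7 fell together and so did Lmo4 and Lmo1, while Lmo2 rose, Maf rose beside 3 falling small Maf genes, and Mgst1 stayed near 0 beside rising relatives.

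The spread of these genes had a form shared with the whole array set. Within an experiment, a Pax5 array above its group mean tended to sit beside a GFP array below its own, and for all 10 genes the SD of the sum of the paired values was smaller than the SD of their difference. Arap2 had an SD of 0.0578 for the sum and 0.327 for the difference, Slc16a1 0.183 and 0.658, Lmo4 0.301 and 0.636, and Cat 0.164 and 0.317. The blocked fit rests on the differences, which are the wider of the pair of measures. The source of the opposite deviations was not tested. The sources used here do not say whether experiment means were removed before deposit, and if they were, the SDs over 8 arrays and the counts of groups that do not overlap would not describe independent arrays.

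The named genes whose 8 differences ran most like those of Cat, Lmo4 and Slc16a1 were ranked by Pearson correlation among 15036 genes, as a description with no test over 8 experiments that share the same arrays. For Lmo4 they were Ifrd1 (r = 0.986), Mrpl47 (0.965) and P4ha2 (0.959), which changed by -0.58, -0.38 and -0.50. For Slc16a1 they were Guca2a (r = 0.968), Hadhb (0.960) and Prrt4 (0.956), of which Hadhb, a subunit of the mitochondrial trifunctional protein, changed by -0.53 and the others by 0.24 and 0.40. For Cat they were Eif4enif1 (r = 0.955), Cse1l (0.947) and Runx1t1 (0.946), none of which passed the test. A similar course over experiments thus went with changes of either sign.

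Beyond the 10 genes, 17 further genes known as selectively low in mouse islets or β cells were measured. Of these, 2 rose, 3 fell and 12 did not pass, with a median log2 fold change of 0.04, where 14.6% of all clusters were called higher and 16.1% lower. The filter on the dimmest clusters (mean under 5.33) kept 10 of the 17, and signal over background was not examined. Ndrg2, a stress-responsive member of the Ndrg family, rose most, with means of 8.64 ± 0.146 in Pax5 cells and 7.62 ± 0.153 in GFP cells (SD, n = 8 each), a log2 fold change of 1.02 and a limma adjusted p of 3.15e-07. Cxcl12, a chemokine, rose by 0.42 (limma adjusted p = 0.000554). Zdhhc9, a palmitoyltransferase, had a log2 fold change of -0.52, Pdgfra, a platelet-derived growth factor receptor, one of -0.36, and Igfbp4, a binding protein of insulin-like growth factors, one of -0.34, with limma adjusted p of 0.000656, 0.00469 and 0.0136 in the same order. Igfbp4 lost its call in the legend's paired test with p adjusted over all clusters. Nfib, a transcription factor at -0.31 that did not pass here (limma adjusted p = 0.0512), was called lower in 8 of 15 alternative fits. The glycolytic hexokinase Hk1 (0.07) and the neuronal gene repressor Rest (-0.04), both classic members of such lists, did not pass. Both were dim and under that cutoff, with means in Pax5 and GFP cells of 4.94 and 4.87 for Hk1 and 4.90 and 4.94 for Rest. Rises and falls stood side by side in these 17 genes, too, as they did over all clusters.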

How the data were processed

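RNA of 832/13 INS1 cells transduced with Pax5 (8 arrays) or GFP (8 arrays) was hybridized to 1-colour Affymetrix arrays. The deposited values are log2 signals that the authors made with Transcriptome Analysis Console and RMA, which subtracts background, normalizes between arrays and summarises probes. Neither versions nor settings are given in the sources used here. Scanner files were not used, so background and saturation were not examined. The annotation names 15049 of 23188 clusters with 1 symbol, 0 with several, and leaves 8139 unnamed. All 15049 matched GRCr8 by gene number.

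Pax5 minus GFP was fitted with limma 3.58.1 in R 4.3.3 (lmFit, eBayes). Experiment numbers entered as fixed blocks, p was Benjamini-Hochberg adjusted across 23188 clusters, and no filter was set. Pairing comes from the experiment numbers in the titles. Deviations from group means correlated between -0.749 and -0.704 for arrays of the same number and between -0.0893 and 0.259 for others. Differences between genes within experiments were tested by exact sign flips, 2-sided, adjusted over 53 pairs chosen with values known. The code was tested on simulated data.

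The 10 genes and the lists, written from general knowledge, were chosen with earlier results of these data known. Named are all 10 genes, up to 3 changed genes of a list with the largest change, genes that counts of 5 or fewer refer to, and the 3 genes most like each of the 3 with the lowest p. Other genes of a list, given with their values, were named after these were seen. Alternatives were no block, array weights, median centring, quantile normalization, a filter on the dimmest 30% of clusters (mean under 5.33, which kept all 10 genes), robust and trended eBayes, each experiment left out, the paired test that a figure legend of the study names, and adjusted p under 0.01. That legend mentions no adjustment of its paired p, whereas here the paired p was adjusted over all clusters.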

Additional observations from a re-analysis of the deposited data

Results flagged for a closer look

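Among 62 genes examined (the 10 disallowed genes and genes of the related lists), each with 8 arrays a group, 3 of 124 groups held an array whose gap to its nearest neighbour, as a share of the group's range, was over Dixon's 95% critical value for 8 values, where chance gives about 1 in 20, or 6.2. No disallowed gene was among them. Otc had a Pax5 array of experiment 1 at 5.22, below the others. Azin1 had a GFP array of experiment 2 at 12.71, below the others. Lmo2 had a GFP array of experiment 1 at 7.11, above the others.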

How the results depend on the processing

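Slc16a1 and Lmo4 stayed lower, and Cat and Zfp36l1 higher, past the threshold in all 16 alternatives of each gene. Log2 fold changes ranged from -1.44 to -1.20 for Slc16a1, from -2.09 to -1.85 for Lmo4, from 1.46 to 1.59 for Cat and from 0.38 to 0.46 for Zfp36l1. Without the replicate block, 5 disallowed genes were higher in place of 3, as Ldha (limma adjusted p = 0.0483) and Arap2 (0.0318) passed too, and 10584 of all clusters were called in place of 7108. At an adjusted p under 0.01, 2 were higher, and 4760 clusters were called. Leaving out each experiment gave 2 to 4 higher, 2 lower and 6210 to 6798 clusters called. With p adjusted over all clusters, the paired test named in the study's legend called 6073 clusters and the same numbers of disallowed genes. Oat, which was not called, ranged from -0.083 to 0.039 over left-out experiments and was 0.039, 0.026 and 0.0071 without experiments 1, 2 and 4. Acot7, also not called, ranged from -0.10 to 0.0029 and was 0.0029 without experiment 2. Of 160 values of single genes under alternatives, 151 kept their direction and call. Quantile normalization and median centring moved the median of all clusters by -0.01 and 0.005. Averaging several clusters of a symbol changed nothing, since each gene had 1 cluster. Signal over background could not be examined, so what it limits is unknown.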
